A study of Homo sapiens with 2 samples.

Results

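The Wnt genes described here are the secreted WNT ligands, their frizzled (FZD) receptors, the secreted antagonists of the DKK and SFRP families, and 4 intracellular genes, AXIN1, AXIN2, LEF1 and TCF7. They were chosen by name, as every gene on the array whose name starts with WNT, FZD, DKK or SFRP followed by a digit, together with the 4 intracellular genes and without WNT16. This gave 40 of the 30238 gene names on the array, 18 of them ligands, 10 receptors, 8 antagonists and 4 intracellular, which were measured by 61 probes. All 40 names are current symbols in a RefSeq gene table.

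The parent line, A2780, was established from a human ovarian carcinoma. A2780CBN is a derivative that was selected in rising doses of carboplatin, a drug that crosslinks DNA, to a dose of 22.2 µM. A2780CBNDXL was selected in carboplatin together with docetaxel, a drug that stabilizes microtubules, and its label gives 8.02 µM for the combination. The study's text gives that concentration as an IC50 and a lower one as the terminal dose, so it is used here only as a label. The control of each line was A2780CC, cells of the same parent carried in culture alongside the line without the drugs, and the study made such a control for each resistant line. A further line, selected in docetaxel alone, was not analysed here. Each line is 1 sample, pooled from 3 RNA isolations, which was hybridized with its control to 4 two-colour arrays, with a forward and a reverse labelled array on each of 2 slides. Array values below are listed in the order slide 1 forward, slide 1 reverse, slide 2 forward and slide 2 reverse. Since the 4 arrays repeat 1 sample, their SD stands for technical error alone, and there is no replicate check over cultures and no p-value. Each line is 1 selected population, and changes that come with resistance cannot be told apart from changes that arose by chance during selection.

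Wnt ligands are secreted glycoproteins that bind frizzled receptors and the co-receptors LRP5 and LRP6. In the canonical branch, binding stops the complex of Axin, APC and GSK3 from marking beta-catenin for degradation, and beta-catenin then acts with the TCF and LEF proteins on target genes. Other branches use frizzleds with ROR2 or RYK and govern cell polarity and movement. Secreted antagonists work at the cell surface, where SFRP proteins bind the ligands and DKK1 binds the co-receptors. AXIN2 is itself a target gene of the canonical branch and is widely used as its readout. In endometrioid ovarian carcinoma, mutations of beta-catenin are a recurrent event.

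Of the 43376 spots on each array, 59.8% to 67.5% were well above background, and none was saturated. On the reverse labelled arrays the log2 ratios ran opposite to those of the forward arrays of the same line before they were turned over, with correlations between -0.739 and -0.581 over all probes. Of 6 epithelial markers, KRT8, KRT18 and EPCAM were above background on all arrays of both lines in the resistant channel, with EPCAM higher than the control in both (log2 ratios of 2.07 and 1.67), KRT18 higher in A2780CBN (1.05) and KRT8 not changed (-0.37 and 0.18). KRT19 was dim, with -0.48 in A2780CBN, not changed, and 0.92 in A2780CBNDXL, not tested. Of 2 mesenchymal markers, VIM was higher in A2780CBN (1.08) and gave 0.30 in A2780CBNDXL. CDH2, the other, gave -0.21 in A2780CBN and was not changed. In A2780CBNDXL an array value of CDH2 was missing and it was not tested. Its mean signals there were 10757 in the line and 3663 in the control. PAX8, a marker of the Mullerian lineage, was present at mean signals of 55.7 and 53.5 (processed intensity, arbitrary units). ESR1, of the same lineage list, was not changed (-0.36 and 0.24). The markers CDH1, KRT7, WT1, PAX2 and EMX2 lay under the detection limit throughout. Of 4 leukocyte genes, PTPRC was not above background on any array, while CD3E, CD68 and CD14 were above it in both channels of all arrays, at mean signals of 53.7 to 153.9 in the lines, and none was changed. Of 3 endothelial genes, PECAM1 and CDH5 were not above background on any array and VWF on 1 or 2 arrays of a line. Of 6 fibroblast genes, 4 were higher and 1, COL1A2, was lower than in the control in each line (log2 ratios of -5.67 to 2.36 in A2780CBN and -2.81 to 3.62 in A2780CBNDXL), and their part in the results below was not tested.

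A gene was called changed where the mean log2 ratio of line over control was at least 1 in size (2-fold), all 4 arrays had that sign, and its probe was well above background in one of the channels on all 4 arrays. In A2780CBN, 23 of the 40 Wnt genes could be tested in this way, and 5 of them (21.7%) were changed, 2 higher and 3 lower. Of all 17951 genes tested in this line, 12.6% were changed, 8.0% higher and 4.55% lower. In A2780CBNDXL, 8 of 20 tested Wnt genes (40.0%) were changed, 2 higher and 6 lower. The corresponding shares of all 17116 genes were 16.9%, 7.70% and 9.20%. In both lines the share of Wnt genes called was thus above that of all genes, but it rests on 5 and 8 genes, and no test over the list was made. Some of these genes passed the filter through 1 channel alone. With both channels required above background, 3 Wnt genes were called in A2780CBN and 5 in A2780CBNDXL. The share of all genes under that requirement was not counted. The median log2 ratio of the tested Wnt genes was -0.02 in A2780CBN and -0.12 in A2780CBNDXL, against -0.06 and 0.04 for all genes tested, both near zero.

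The changed genes were DKK3 and WNT2B, both higher, and FZD8, WNT3A and FZD3, all lower, in A2780CBN. In A2780CBNDXL, DKK1 and FZD1 were higher, and FZD8, FZD3, WNT3A, FZD5, FZD4 and FZD9 were lower. Of the 20 Wnt genes tested in both lines, 3 were changed in the same direction, namely FZD8, FZD3 and WNT3A, and none was changed in opposite directions. Among all 16131 genes tested in both lines, 4.00% were changed in the same direction and 1.83% in opposite directions. FZD8, FZD3 and WNT3A were under the detection limit in A2780CBNDXL, and requiring both channels above background left 0 shared Wnt genes.

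**Figure D1:**
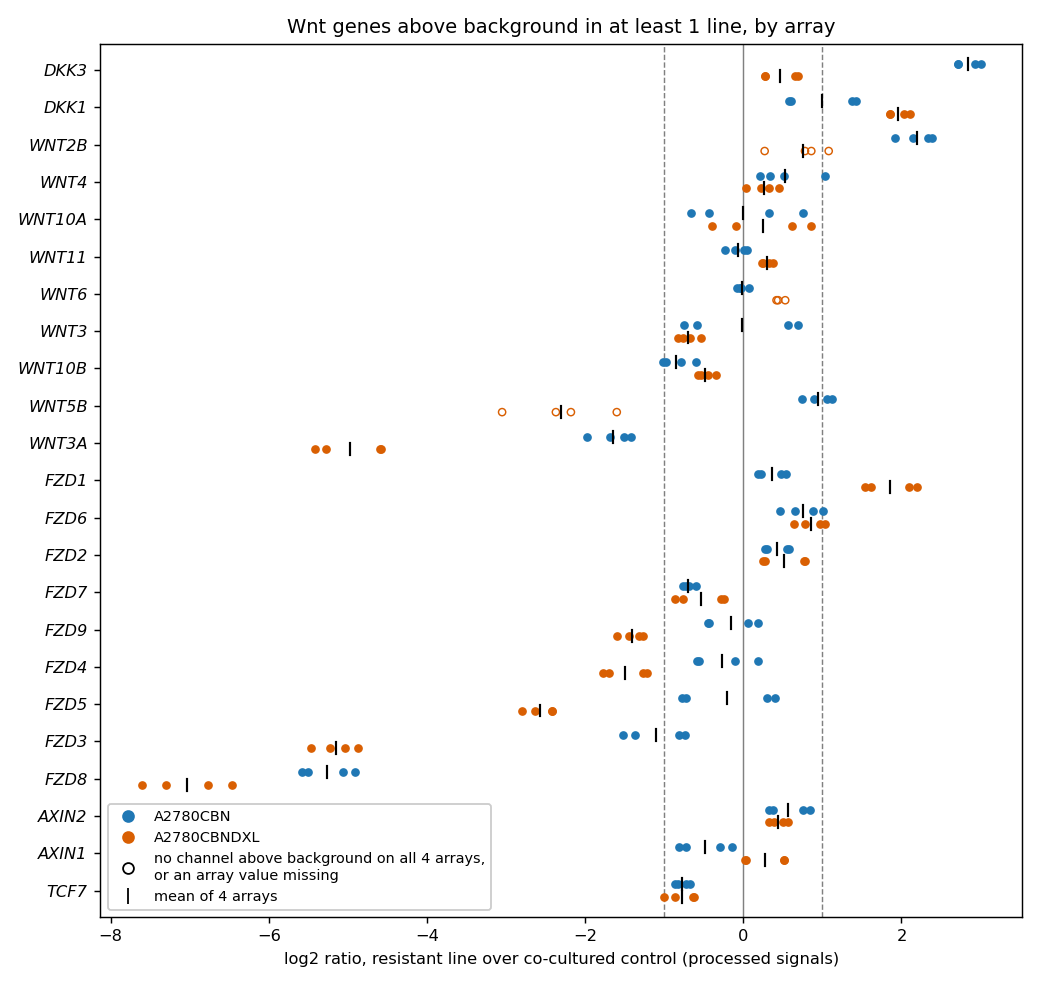
Log2 ratio of resistant line over co-cultured control (x axis) on each of 4 arrays (points) for the 23 Wnt genes that could be tested in at least 1 line (rows), with the mean of the 4 arrays as a black bar, open points where the gene could not be tested, and the 2-fold limits as dashed lines. FZD8 lies between -7.60 and -4.91 on all 8 arrays, while AXIN2 and FZD2 stay between 0.25 and 0.84.

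In A2780CBNDXL most of the changes were in frizzled receptors, 6 of the 8, and in A2780CBN as many were in receptors as in ligands. Frizzleds are receptors with 7 membrane passes and an outer cysteine-rich domain that binds the ligand. In A2780CBN, 2 of 9 tested receptors were changed, both lower, and in A2780CBNDXL 6 of 9, of which 5 were lower and 1 higher. The median log2 ratio of the tested receptors was -0.20 in A2780CBN and -1.41 in A2780CBNDXL, where that of all genes was 0.04. FZD10 lay under the detection limit on all 8 arrays.

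FZD8 had the lowest ratio among the Wnt genes in A2780CBN, and in A2780CBNDXL it was one of 3 genes, with FZD3 and WNT3A, under the detection limit in the line, which therefore have no order. In A2780CBN its log2 ratios were -5.51, -4.91, -5.58 and -5.06, with a mean of -5.27 ± 0.33 (SD, 4 arrays). The processed signal was 25.9 in the line and 1018 in the control, and the line was above the detection limit (well above background) on 2 of 4. In A2780CBNDXL the log2 ratios were -6.77, -6.46, -7.30 and -7.60, with control signals of 709.1, 1229, 1297 and 1736. The signal of this line, 6.5 to 13.9, stayed under the detection limit on every array. With the lowest detected signal of each array taken as a floor, FZD8 was at least 58.1-fold below its control. The bounds given below use the same convention, and spots that were not detected can lie above this floor. The control channels of both lines differed by only 0.20 ± 0.65 (log2, SD over 4 pairs of arrays matched by slide and labelling), less than the spread between the pairs. The receptor was thus bright in both controls and near or below the detection limit in both resistant lines. With another processing, normexp background correction (offset 50) together with loess within arrays, FZD8 kept its call at smaller ratios of -1.92 and -2.53. The probe lies at chr10:35967384-35967443 of NCBI36, the build of the array design.

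FZD3 was also lower in both lines, by unequal amounts. In A2780CBN its log2 ratios were -1.37, -0.74, -1.52 and -0.81, with a mean of -1.11 ± 0.39 (SD, 4 arrays), and both forward arrays gave larger changes than both reverse arrays. A further FZD3 probe gave -1.09 ± 0.35. In A2780CBNDXL the log2 ratios were -4.87, -5.23, -5.04 and -5.47, and the signal of 17 to 26.6 in the line was under the detection limit throughout, against 496.7 to 997.1 in the control. FZD3 was thus at least 33.3-fold lower in this line by one probe and at least 25.8-fold lower by the other. The call in A2780CBN lay close to the limit, and it was lost with background-subtracted signals (-0.93) and with normexp and loess (-0.55).

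FZD5, FZD4 and FZD9 were lower in A2780CBNDXL and were not changed in A2780CBN. FZD5 is a receptor for canonical ligands and FZD4 also binds Norrin, a ligand outside the WNT family. For FZD5 the log2 ratios in A2780CBNDXL were -2.42, -2.80, -2.42 and -2.64, a mean of -2.57 ± 0.19 (SD, 4 arrays) or 5.93-fold lower. Another FZD5 probe gave -2.49 ± 0.22, and by the remaining probe, with the line under the detection limit, FZD5 was at least 4.54-fold lower. In A2780CBN the same probe of FZD5 gave -0.73, 0.40, -0.77 and 0.30, negative on the forward and positive on the reverse arrays, with a mean of -0.20. Its sign in A2780CBN went with the labelling direction, while the other FZD5 probes gave -0.41 ± 0.10 and -0.30 ± 0.12 there. In A2780CBNDXL every array of every FZD5 probe lay below zero. FZD4 had log2 ratios of -1.27, -1.70, -1.22 and -1.77 in A2780CBNDXL (mean -1.49 ± 0.29, 2.81-fold lower) and a mean of -0.27 ± 0.38 in A2780CBN. A further FZD4 probe was not above background on any array. FZD9 had log2 ratios of -1.45, -1.32, -1.60 and -1.27 in A2780CBNDXL (mean -1.41 ± 0.15, 2.66-fold lower) and a mean of -0.16 ± 0.33 in A2780CBN. With normexp and loess FZD4 and FZD9 reached -0.98 and -0.79 in A2780CBNDXL and were no longer called, whereas FZD5 kept its call at -1.70.

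FZD1 was the one receptor with a higher level, in A2780CBNDXL. Its log2 ratios were 2.20, 1.61, 2.10 and 1.54, with a mean of 1.86 ± 0.34 (SD, 4 arrays), or 3.64-fold. The signal was 1678 to 2251 in the line and 364.2 to 776.1 in the control, with no overlap. A further probe gave 1.41 ± 0.18. In A2780CBN the same log2 ratios were 0.22, 0.48, 0.18 and 0.54, above zero on all arrays but under the limit, with a mean of 0.36 ± 0.18.

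The remaining detected receptors FZD2, FZD6 and FZD7 moved by less than 2-fold. FZD2 gave 0.43 ± 0.16 in A2780CBN and 0.51 ± 0.30 in A2780CBNDXL. FZD6, a receptor of the polarity branch, gave 0.75 ± 0.25 and 0.85 ± 0.18, above zero on all 8 arrays. FZD7 gave -0.70 ± 0.07 and -0.54 ± 0.32, below zero on all 8 arrays.

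**Figure D2:**
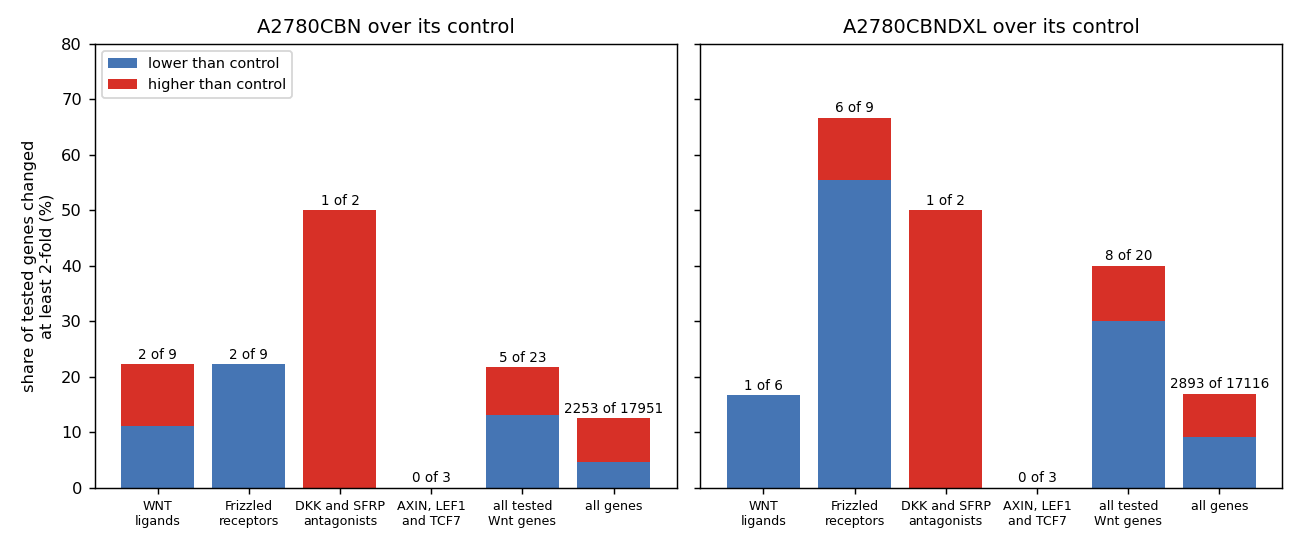
Share of tested genes changed at least 2-fold (y axis, %) by role of the Wnt gene and for all genes, in A2780CBN (left) and A2780CBNDXL (right), with the number changed of the number tested above each bar. In A2780CBNDXL 6 of 9 frizzled receptors were changed, against 2893 of 17116 genes, and in neither line was an intracellular Wnt gene changed.

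Among the WNT ligands, 9 of 18 could be tested in A2780CBN and 6 in A2780CBNDXL. Changed were 2 of 9 in A2780CBN, WNT2B higher and WNT3A lower, and 1 of 6 in A2780CBNDXL, WNT3A lower. The ligands WNT2, WNT5A, WNT7A, WNT7B, WNT8A, WNT8B and WNT9A were not above background in either channel on any of the 8 arrays, and WNT1 and WNT9B were above it on too few arrays to be tested. The absence of a call for these genes says nothing of their change.

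WNT3A, the prototype ligand of the canonical branch, was lower in both lines. In A2780CBN its log2 ratios were -1.68, -1.51, -1.98 and -1.42, with a mean of -1.65 ± 0.24 (SD, 4 arrays), or 3.14-fold lower. The signal fell between 72 and 93.8 in the line and between 215.3 and 291.4 in the control. In A2780CBNDXL the log2 ratios were -4.58, -5.28, -4.60 and -5.42. The line's signal of 7.17 to 15 lay under the detection limit on each array, against 239.2 to 363.5 in the control, so that WNT3A was at least 14.5-fold lower. The controls differed by 0.14 ± 0.21 on the log2 scale. WNT3A was measured by 1 probe, at chr1:226315516-226315575 (NCBI36). The call in A2780CBN was lost with normexp and loess, at -0.49.

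WNT2B was higher in A2780CBN, with log2 ratios of 2.39, 2.15, 1.92 and 2.33 and a mean of 2.20 ± 0.21 (SD, 4 arrays). It was a dim probe. The line's signal was 48.6 to 73.5, and the control's signal of 9.88 to 16.6 lay under the detection limit on each array. By the floor used for FZD8, WNT2B was at least 2.49-fold higher. With normexp and loess the ratio was 0.21 and not called. In A2780CBNDXL the log2 ratios were 0.78, 0.86, 1.08 and 0.27, and neither channel was above background on all arrays.

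WNT5B, a ligand of the polarity branch, ran in opposite directions in the lines. Its log2 ratios were 0.74, 1.06, 0.89 and 1.12 in A2780CBN, a mean of 0.95 ± 0.17 (SD, 4 arrays) just under the 2-fold limit. In A2780CBNDXL they were -2.37, -1.60, -3.05 and -2.18. There the line's signal was not above background on any array and the control's on 3 of 4, so that the gene could not be tested in that line. WNT10B gave -0.85 ± 0.19 in A2780CBN and -0.48 ± 0.10 in A2780CBNDXL, below zero on all 8 arrays. WNT3 gave -0.58, 0.56, -0.75 and 0.69 in A2780CBN, again with the sign of the labelling, and -0.70 ± 0.12 in A2780CBNDXL. WNT10A and WNT11 had means between -0.07 and 0.30 in both lines.

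For WNT4 and WNT6 the probes disagreed. WNT4 was represented by a probe with a mean log2 ratio of 0.53 ± 0.36 (SD, 4 arrays) in A2780CBN and 0.26 ± 0.18 in A2780CBNDXL. The other WNT4 probe gave 2.66 ± 0.26 in A2780CBN, where the control was not above background on any array and the line at least 1.59-fold higher, and it was not above background in A2780CBNDXL. WNT6 was represented by a very bright probe with signals of 46340 to 114470, a ratio of -0.02 ± 0.06 in A2780CBN and values of 0.53, 0.42 and 0.44 on the 3 arrays of A2780CBNDXL that measured it. The other WNT6 probe, at chr2:219447096-219447155 (NCBI36), gave -1.28 ± 0.34 in A2780CBN and -2.16 ± 0.32 in A2780CBNDXL, and by it WNT6 would be lower in both lines. The rule that the brightest probe stands for a gene therefore decided whether WNT6 was called. The sequences of the probes that stood for WNT4 (chr1:22319452-22319511, minus strand) and WNT6 (chr2:219446524-219446583, plus strand) are shown because their base composition differs, with the longest run of G and C in capitals.
WNT4 probe: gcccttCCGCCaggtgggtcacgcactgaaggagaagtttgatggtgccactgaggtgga
WNT6 probe: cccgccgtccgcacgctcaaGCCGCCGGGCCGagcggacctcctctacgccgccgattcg
G and C made up 60.0% of the WNT4 probe and 76.7% of the WNT6 probe, whose longest such run was 12 bases. They made up 43.3% of the other WNT4 probe and 55.0% of the other WNT6 probe. Whether base composition had a part in the brightness of the WNT6 probe was not tested.

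Of the antagonists, DKK1 and DKK3 were the only members detected on all arrays of both lines. DKK1 blocks the canonical branch by binding the co-receptors LRP5 and LRP6, whereas DKK3 is a divergent family member for which no such block is established. DKK1 was among the brightest Wnt probes. In A2780CBNDXL its log2 ratios were 2.03, 1.85, 2.11 and 1.86, with a mean of 1.96 ± 0.13 (SD, 4 arrays), or 3.9-fold. The signal was 63932 to 80527 in the line and 15659 to 22327 in the control. In A2780CBN the log2 ratios were 1.38, 0.60, 1.43 and 0.58, above zero on all arrays, but the mean fell just under the limit, at 1.00 after rounding, and DKK1 was not called. Leaving out either the first or the fourth array of A2780CBN made it a call in that line. Over both lines DKK1 was thus higher than the control on all 8 arrays.

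DKK3 was higher in A2780CBN, with log2 ratios of 2.71, 3.00, 2.71 and 2.93, a mean of 2.84 ± 0.15 (SD, 4 arrays) or 7.15-fold. The other probes on the strand of the transcript gave 2.92 ± 0.31 and 2.56 ± 0.32. A pair of probes that carry the gene's name on the opposite strand was not above background on any array. In A2780CBNDXL the log2 ratios were 0.69, 0.28, 0.66 and 0.27, a mean of 0.47 ± 0.23, and DKK3 was not called. The controls of both lines differed for this gene. The control's signal was 297.5 to 359.0 on the A2780CBN arrays and 762.4 to 1253 on the A2780CBNDXL arrays. On channel signals scaled between arrays the control of A2780CBNDXL was higher by 1.52 ± 0.27 (log2, SD over 4 pairs). Set against the other line's control, DKK3 gave 1.31 in A2780CBN and 2.00 in A2780CBNDXL, 2-fold or more in both. Whether DKK3 was called in A2780CBNDXL therefore depended on the control used. Of 20 Wnt genes whose control was above background on all 8 arrays, DKK3 was the 1 whose controls lay at least 2-fold apart, against 3.34% of 15652 genes.

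The other antagonists were dim. DKK2 gave -0.93, -2.32, -1.80 and -1.47 in A2780CBN, with the control above background on 3 of 4 arrays and the line on none, and -0.32 ± 0.24 in A2780CBNDXL. SFRP1 gave -1.40 ± 0.76 and, by a further probe, -2.42 ± 0.37 in A2780CBN, again with the control above background on 3 arrays, and 0.03 ± 0.28 in A2780CBNDXL. Neither could be tested in any line. DKK4 and SFRP4 were not above background on any array, and SFRP2 and SFRP5 on at most 1 array in a channel.

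None of the 3 intracellular genes that could be tested was called in either line. AXIN2 gave 0.37, 0.75, 0.33 and 0.84 in A2780CBN (mean 0.57 ± 0.26) and 0.39, 0.56, 0.32 and 0.50 in A2780CBNDXL (mean 0.44 ± 0.11), above zero on all 8 arrays and below 2-fold. AXIN1, the scaffold of the destruction complex, gave -0.30, -0.72, -0.14 and -0.81 in A2780CBN and 0.04, 0.51, 0.02 and 0.52 in A2780CBNDXL. TCF7 gave -0.77 ± 0.09 in A2780CBN and -0.78 ± 0.19 in A2780CBNDXL, with the highest of its 8 values at -0.62. LEF1 was not above background on any array.

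The difference between the lines was then examined across the 22 Wnt genes that were tested in at least 1 line and measured on all 8 arrays. For 10 of them the log2 ratios of the lines lay at least 1 apart and the arrays of one line did not overlap those of the other, and 18.3% of all 17627 genes met this description. The ratio was lower in A2780CBNDXL for 9 of the 10, DKK3, FZD3, FZD4, FZD5, FZD8, FZD9, WNT2B, WNT3A and WNT5B, and higher for FZD1. For FZD3, WNT3A, WNT5B and FZD8 the signal in A2780CBNDXL was under the detection limit, so that the size of their differences is not measured, and the control of WNT2B was under it on all arrays. FZD8 and WNT2B no longer met the description where both channels were required above background in at least 1 line, which left 8 genes. Among the genes detected in both lines and their controls, the differences of A2780CBNDXL minus A2780CBN were -2.37 for FZD5, -2.36 for DKK3, -1.25 for FZD9, -1.22 for FZD4 and 1.5 for FZD1. FZD1 differed between the line channels by 1.44 ± 0.07 (log2, scaled between arrays) and between the control channels by -0.06 ± 0.47. The control channels of FZD3 differed by -0.00 ± 0.58, while its line channel was detected on all arrays of A2780CBN and on none of A2780CBNDXL. DKK1 was higher in the channel of A2780CBNDXL than in that of A2780CBN by 1.43 ± 0.06, and also between the controls by 0.46 ± 0.28. DKK3 went the other way, with -0.84 ± 0.17 between the lines and 1.52 ± 0.27 between the controls. No test of these differences over cultures could be made.

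**Figure D3:**
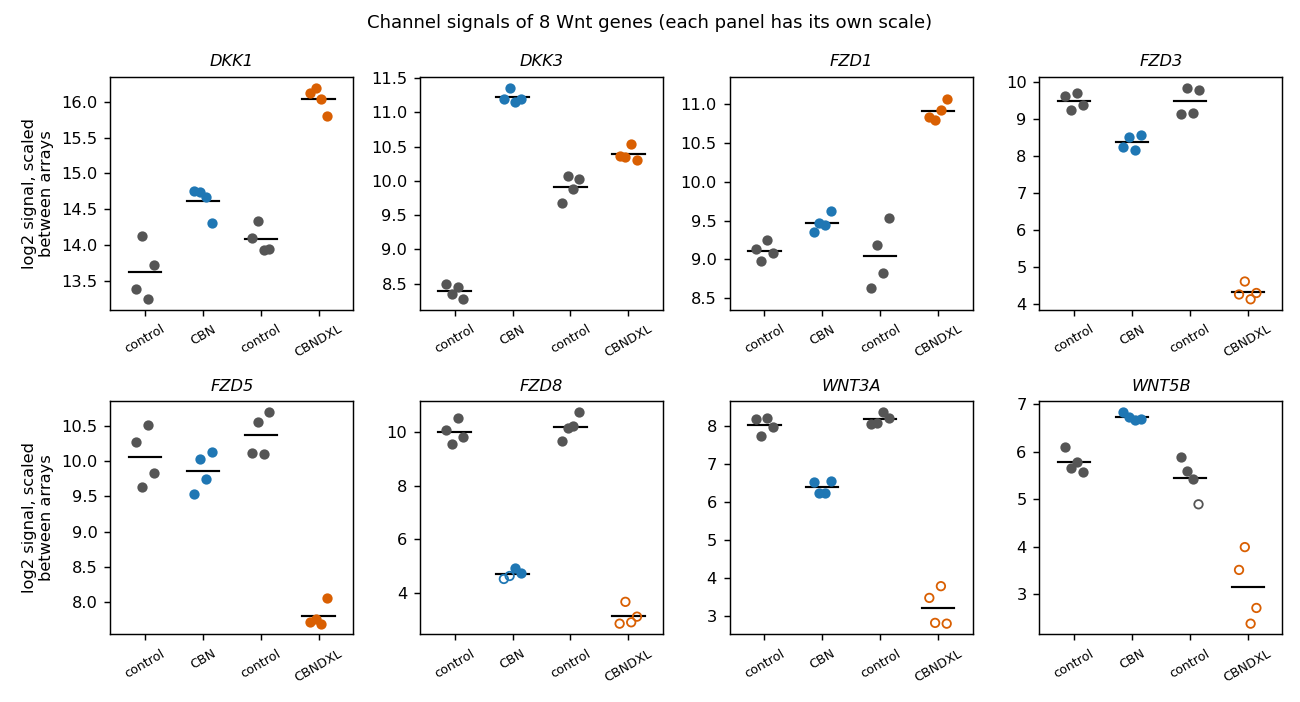
Channel signals (y axis, log2 after scaling between arrays, each panel with its own scale) of 8 Wnt genes, with the control and the line on the A2780CBN arrays followed by the control and the line on the A2780CBNDXL arrays; points are arrays, open points were not well above background, and bars are means of 4. For FZD8, FZD3 and WNT3A the controls lie together and the A2780CBNDXL points are open, while for DKK3 the controls differ by 1.52.

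The windows upstream of FZD8 and WNT3A, both lower in both lines, and of FZD1 and DKK1, both higher in A2780CBNDXL, are shown as the sequences in which sites of TCF and LEF proteins would be looked for. Each holds the 250 bases before the start of the gene in GRCh38.p14, from RefSeq, read in the direction of the gene, for FZD8 at chr10:35642297-35642546 (minus strand), WNT3A at chr1:228006748-228006997 (plus), FZD1 at chr7:91264183-91264432 (plus) and DKK1 at chr10:52314031-52314280 (plus). Capitals mark the letters CTTTG, the core of the sites of these proteins, or CAAAG, the same letters on the other strand.
FZD8: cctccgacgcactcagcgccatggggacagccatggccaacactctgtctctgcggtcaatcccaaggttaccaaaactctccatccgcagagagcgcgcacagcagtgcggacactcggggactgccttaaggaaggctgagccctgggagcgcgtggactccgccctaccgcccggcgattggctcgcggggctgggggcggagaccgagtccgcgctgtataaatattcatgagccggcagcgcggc
WNT3A: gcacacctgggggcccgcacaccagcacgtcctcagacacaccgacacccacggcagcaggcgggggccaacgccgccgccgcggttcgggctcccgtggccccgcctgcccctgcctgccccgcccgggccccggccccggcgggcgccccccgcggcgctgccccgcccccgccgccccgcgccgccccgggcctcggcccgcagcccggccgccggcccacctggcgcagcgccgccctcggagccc
FZD1: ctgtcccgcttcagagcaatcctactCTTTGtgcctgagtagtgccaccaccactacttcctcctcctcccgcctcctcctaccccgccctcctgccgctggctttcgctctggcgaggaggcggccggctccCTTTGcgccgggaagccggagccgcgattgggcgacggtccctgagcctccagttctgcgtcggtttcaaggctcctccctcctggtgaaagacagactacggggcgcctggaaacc
DKK1: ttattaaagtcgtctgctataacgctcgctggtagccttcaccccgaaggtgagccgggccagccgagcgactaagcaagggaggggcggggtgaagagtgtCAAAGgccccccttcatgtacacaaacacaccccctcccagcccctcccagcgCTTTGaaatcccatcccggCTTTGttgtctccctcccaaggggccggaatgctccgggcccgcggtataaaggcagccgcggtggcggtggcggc
The core occurred 3 times before DKK1 and 2 times before FZD1, and did not occur before FZD8 or WNT3A. It is a short word, found in 42.1% of 35116 windows of the same length. Windows were given for 27 of the 40 Wnt genes, some with more than 1 start, which made 31 windows. Of these 31, 6 held the core, for DKK1, FZD1, LEF1, TCF7, WNT3 and WNT8B. The 4 windows shown are a choice. Of the other called genes with a window, WNT2B, higher in A2780CBN, held no core, and neither did FZD4, FZD5 and FZD9, lower in A2780CBNDXL. TCF7 and WNT3 held the core and were not called, with -0.77 and -0.02 in A2780CBN and -0.78 and -0.70 in A2780CBNDXL. LEF1 and WNT8B were not above background. Whether the core goes with the direction of change was not tested. The longer CTTTGA (or TCAAAG) was found for DKK1 alone, against 11.2% of all windows, and overlaps the core. The still longer CTTTGAT (or ATCAAAG) was found for none, against 2.26%. Other letters after the core, such as those in the DKK1 window, were not counted, so this is no count of complete sites. The windows were rich in G and C, with a median of 70.8% and 23 CG pairs in the Wnt windows, against 58.0% and 11 in all. The windows of FZD8 and WNT3A held 24 and 38 CG pairs, those of FZD1 and DKK1 19 and 18. These letters describe the windows, and no binding or methylation was measured.

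Other genes of the pathway were read from lists of co-receptors, secreted modulators, ligand secretion, cytoplasmic and nuclear components, reported target genes and polarity genes. Of 89 such genes on the array, 69 could be tested in A2780CBN, of which 7 were higher and 6 lower (18.8%). In A2780CBNDXL, 71 could be tested, of which 9 were higher and 13 lower (31.0%). The shares of all genes were 12.6% and 16.9%, as above. The lists were drawn up with earlier results of these data known. They include ABCB1, which the study had reported as higher in A2780CBNDXL. No test over the lists was made.

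At the cell surface, ROR2, a receptor for ligands of the polarity branch, changed in opposite directions, with a log2 ratio of 2.63 ± 0.12 (SD, 4 arrays) in A2780CBN and -2.21 ± 0.15 in A2780CBNDXL. In A2780CBNDXL its line channel was above background on 2 of 4 arrays, so the size there is uncertain. The co-receptors LRP5 and LRP6 lay between -0.46 and 0.48 in both lines. Of the secreted and membrane modulators, 3 of 14 were higher and 1 lower in A2780CBN, and 4 of 13 higher and 4 lower in A2780CBNDXL, with medians of 0.06 and 0.04. The glypicans GPC3 and GPC4, heparan sulfate proteoglycans of the cell surface, were higher in both lines, GPC3 by 1.60 ± 0.27 and 4.41 ± 0.12 and GPC4 by 1.47 ± 0.38 and 3.92 ± 0.18. RNF43, a ubiquitin ligase that removes frizzleds from the membrane and is itself a Wnt target, was higher in both, by 2.41 ± 0.25 and 3.44 ± 0.32. In A2780CBNDXL the frizzled-related antagonist FRZB was higher by 3.93 ± 0.40, with its control above background on 3 of 4 arrays. The antagonists SOSTDC1 (-2.69 ± 0.19) and WIF1 (-2.22 ± 0.25) and the R-spondin receptor LGR4 (-2.30 ± 0.43) were lower in the same line. The R-spondin RSPO3, a ligand of such receptors, was lower in A2780CBN (-2.31 ± 0.73), where the line was above background on 2 of 4 arrays. WLS, which carries WNT ligands to the membrane, was higher in A2780CBN at 4.10 ± 0.99, from a control signal that was above background on 1 array.

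Inside the cell, none of 18 tested cytoplasmic components was changed in A2780CBN and 1 in A2780CBNDXL, DVL1, an adaptor that binds frizzleds, at -1.28 ± 0.16. Beta-catenin, CTNNB1, gave 0.22 ± 0.12 and -0.03 ± 0.25. Of the nuclear partners, none of 11 was changed in A2780CBN. In A2780CBNDXL 5 of 13 were changed. The medians of the nuclear list were 0.07 and 0.28, and those of the cytoplasmic list 0.18 and -0.01. TCF7L1, a TCF family member that often represses, was lower (-2.87 ± 0.14). Of the TLE co-repressors, which bind TCF and LEF proteins, TLE4 was lower (-2.08 ± 0.07) and TLE2 (1.69 ± 0.04), TLE1 (1.14 ± 0.19) and TLE3 (1.13 ± 0.07) were higher.

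Reported target genes of beta-catenin did not move as 1 group. In A2780CBN 1 of 11 was higher and 4 were lower, and in A2780CBNDXL 2 of 14 were higher and 4 lower, with median log2 ratios of -0.11 and 0.56. TNFRSF19 and FGF20 were lower in both, TNFRSF19 at least 43.3-fold and 38.8-fold and FGF20 at least 17.9-fold and 45.5-fold in A2780CBN and A2780CBNDXL. VCAN, a matrix proteoglycan, was lower in A2780CBN (-2.98 ± 0.21) and higher in A2780CBNDXL (1.67 ± 0.17). JUN was higher in A2780CBN (1.82 ± 0.65), and FST, the activin antagonist follistatin, was lower in A2780CBNDXL (-2.74 ± 0.34). The JUN control was above background on 3 of 4 arrays and the FST line channel on 1, so these sizes are uncertain. ABCB1, the drug efflux pump that carries docetaxel, was at least 23.4-fold higher in A2780CBNDXL and was not above background in A2780CBN. CCND1 was not changed in either line, at 0.02 ± 0.07 and 0.62 ± 0.55. MYC gave -0.11 ± 0.23 in A2780CBN, not changed, and -1.02 ± 0.07 in A2780CBNDXL, where it was called lower, close to the limit. Of the polarity genes, PRICKLE1 was lower in both lines, at least 2.28-fold and at least 6.93-fold, and DAAM1 was higher in A2780CBN (1.53 ± 0.19), with list medians of -0.17 and -0.19.

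**Figure D4:**
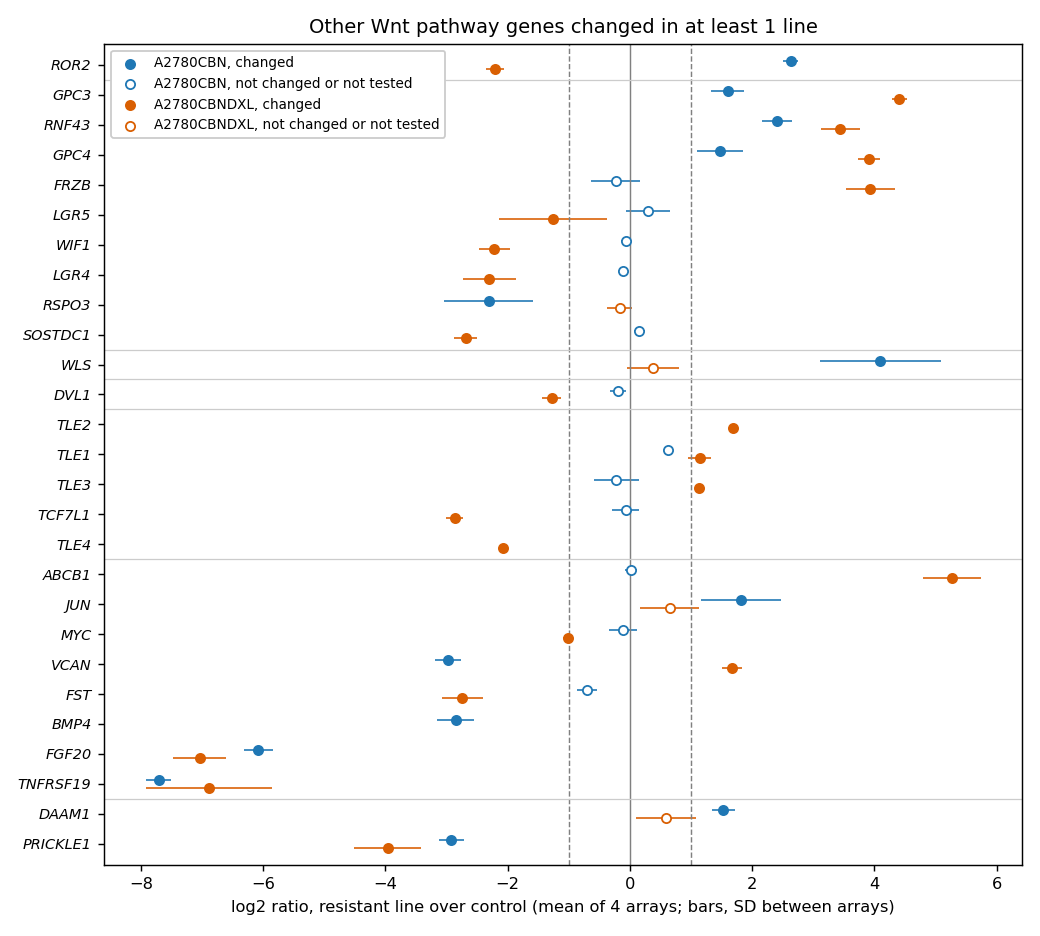
Mean log2 ratio of resistant line over control (x axis; bars, SD between 4 arrays) for the other pathway genes changed in at least 1 line (rows, grouped by list between grey lines). A filled point is a change, and an open point is a gene that was not changed or could not be tested in that line. TLE2 and TLE4 in A2780CBN and BMP4 in A2780CBNDXL have no point because an array value was missing. GPC3, GPC4 and RNF43 lie above the 2-fold limit in both lines and FGF20, TNFRSF19 and PRICKLE1 below it in both, while ROR2 and VCAN point in opposite directions.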

How the data were processed

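RNA of each resistant line and of its control was hybridized together to Agilent two-colour arrays (4 per line). The authors deposited the output of Agilent Feature Extraction (version 10.7.1.1 on the first slide, 10.7.3.1 on the other), with probe coordinates on NCBI36. The deposited processed intensity was background-subtracted and dye-normalized within each array by the authors. The raw mean and background intensities served alternatives only. Per the labels, the control carries Cy3 and the line Cy5. The dye entries of reverse arrays repeat those of the forward arrays, but these arrays were turned over as their name states, after which both directions correlated at 0.581 to 0.739.

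Outlier spots were left out (0.38% to 2.32%), spots of a probe averaged, and log2 ratios averaged by labelling direction first. A gene was represented by its brightest probe. Where 1 channel stayed under the detection limit on all arrays, the change is given as a bound, the bright mean over a floor. The floor is, per array, the higher of the lowest signal well above background and the probe's own, after Aquantile scaling between arrays. Undetected spots can exceed that lowest signal, as with DKK2 at 5.81 (log2) in the control of A2780CBNDXL on array 1. The bound therefore holds only under this convention. The number of arrays limits the precision. Wnt genes changed in a line were given in full, others near the limit or with discordant probes by value and the rest by range; of the pathway lists, up to 3 genes per direction and line were named by size, and LRP5, LRP6, CTNNB1, CCND1 and MYC beside these, after their values were seen. The Wnt genes and the lists were chosen with earlier results of these data known. limma and the analysis of variance were alternatives whose errors are between repeats of 1 sample. The calling rule, limma and the analysis of variance were tried on simulated log2 ratios with changes larger than the 2-fold limit. Normalization, outlier removal, the background filter, the choice of probe and the bounds were not simulated. R 4.3.3, limma 3.58.1 and pandas 2.3.3 were used.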

Additional observations from a re-analysis of the deposited data

Results flagged for a closer look

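A pair of Wnt genes lay on opposite sides of zero in the lines, on every array of each. How many of all genes would do so was not counted, so the pair cannot be read as a trait of the Wnt genes. The log2 ratio of WNT5B was 0.95 in A2780CBN and -2.30 in A2780CBNDXL, a difference of -3.25, with the line's signal not above background in A2780CBNDXL. The log2 ratio of AXIN1 was -0.49 in A2780CBN and 0.27 in A2780CBNDXL, a difference of 0.77, with neither value past 2-fold and the lowest array value in A2780CBNDXL at 0.02. Neither difference was tested, since each line is 1 sample.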

How the results depend on the processing

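The count of changed Wnt genes in A2780CBN (5) was 2 with normexp and loess, 3 with both channels required above background and 11 at a 1.5-fold limit, and 5 to 7 when each array was left out. In A2780CBNDXL (8) it was 5 with both channels required above background, and 8 to 9 when each array was left out. The count changed in the same direction in both lines (3) was 1 with normexp and loess and 1 with background-subtracted signals, 0 with both channels required, 6 at a 1.5-fold limit and 2 at 3-fold, and 3 to 4 without an array. By its construction the requirement on both channels removes FZD8, FZD3 and WNT3A, whose signal in A2780CBNDXL was not above background, and background-subtracted signals give no value for WNT3A in that line. Normexp and loess were changed together, and their parts were not told apart. The cause of the other moves was not tested. The count between the lines (10) was 5 with normexp and loess, 10 to 12 when each array was left out and 7 with the other line's control; its alternatives were added after seeing the data. The analysis of variance and limma, without or with slide as a block, gave counts of 5, 8 and 3 with the same genes. These fits took the tested genes, signals and 2-fold limit of the main rule, so they are not an independent check. The median log2 ratio of the Wnt genes in A2780CBNDXL ranged from -0.50 to 0.26. With the other line's control WNT5B was called in both lines, DKK3 and FZD6 in A2780CBNDXL. Of 199 recomputed values of the named genes none reversed the sign of a call, and 19 moved by more than the SD between arrays. No paired analysis was possible because each line is 1 sample. Signal over background limits the dim genes, above all WNT2B, WNT4, DKK2 and SFRP1.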
